A study of Homo sapiens with 14 samples.

Results

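The genes described here are the numbered zinc finger genes of human chromosome 19, taken as protein-coding genes of GENCODE release 29 on that chromosome whose symbol is ZNF followed by digits alone. There were 240 of them among 58037 gene IDs in the count table, against 234 genes chosen by the same name rule on other chromosomes. The rule used name, type and position and no measured value. The cells were OCI-AML2, a human acute myeloid leukaemia line, with RUNX1 either carrying the R174* stop codon on 1 allele (mutant) or intact (wild type). RUNX1 is a transcription factor that blood cells need to form. The total RNA libraries comprised 4 of mutant cells given 100 nM HHT over 8 h, 4 of mutant controls and 2 of wild type. HHT is homoharringtonine, which blocks the elongation step of translation. RiboLace, which pulls down RNA on active ribosomes with a puromycin-like probe, gave 2 mutant and 2 wild-type libraries.

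The mutant total RNA came from the lines G7 and F3, with 2 libraries per line and treatment, and both mutant RiboLace libraries came from F3. Wild type is the parent line and was not treated with HHT. The labels do not say whether G7 and F3 are single clones, nor whether replicates are separate cultures, so p-values measure only the spread between these libraries. The protocol names DMSO as vehicle. One label dates the mutant controls at 8 h and another at 0 h, and the wild-type libraries are labelled as untreated. HHT therefore cannot be told apart from time in culture if the 0 h label holds, and genotype cannot be told apart from control handling.

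Zinc finger proteins of the C2H2 class hold tandem fingers, each a short fold around a zinc ion that reads a few bases of DNA. Most of those encoded on chromosome 19 lie in tandem gene clusters and also carry a KRAB domain, which binds TRIM28 (KAP1) and through it SETDB1 and HP1 proteins, and so silences retroelements and imprinted loci. Their mRNAs are known from work in other cells to be scarce and short-lived. No half-life was measured in these data.

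Translation of the annotated coding sequences gave a median of 12 fingers per protein, up to 36 in ZNF208, and none matching the finger pattern in ZNF738. A KRAB A box was found in 205 genes and not in the other 35. The genes with a KRAB A box had a median transcript GC content of 42.0%, and those without one 60.9%. In chromosome order, with a new group wherever neighbouring starts lay over 1000000 bases apart, the 240 genes formed 16 groups. The largest held 57 genes between 55476332 and 58481230 (GRCh38), the next 39 genes between 51571298 and 53580269, all with a KRAB A box, and the third 37 genes between 19668796 and 24129961.

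The start regions of 209 of the 240 genes were in the RefSeq promoter table (GRCh38.p14), which spans 250 bases before to 50 after each start. Shown here are those of the top pair of named rises and of named falls after HHT that the table holds, so that the motifs counted next can be seen in place. Capitals mark the ETS core CCGGAAG, the CCAAT box CCAAT and the GC box GGGCGG, on either strand. ZNF416 is given from chr19:57578862-57579161 and ZNF671 from chr19:57727575-57727874, both on the minus strand. ZNF556 is given from chr19:2867085-2867384 and ZNF575 from chr19:43532938-43533237, both on the plus strand. ZNF114, the gene with the largest fall, is named only.
ZNF416: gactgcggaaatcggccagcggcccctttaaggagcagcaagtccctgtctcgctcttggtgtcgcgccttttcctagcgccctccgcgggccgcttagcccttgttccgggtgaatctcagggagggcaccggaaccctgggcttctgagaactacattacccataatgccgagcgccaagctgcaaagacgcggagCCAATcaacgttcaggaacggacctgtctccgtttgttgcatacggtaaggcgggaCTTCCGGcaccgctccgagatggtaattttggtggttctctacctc
ZNF671: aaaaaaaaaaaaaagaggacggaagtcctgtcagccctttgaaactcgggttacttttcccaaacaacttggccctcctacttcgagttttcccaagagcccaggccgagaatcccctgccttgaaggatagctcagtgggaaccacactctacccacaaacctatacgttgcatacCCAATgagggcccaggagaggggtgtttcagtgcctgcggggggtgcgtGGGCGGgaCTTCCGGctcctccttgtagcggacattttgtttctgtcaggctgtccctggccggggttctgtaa
ZNF556: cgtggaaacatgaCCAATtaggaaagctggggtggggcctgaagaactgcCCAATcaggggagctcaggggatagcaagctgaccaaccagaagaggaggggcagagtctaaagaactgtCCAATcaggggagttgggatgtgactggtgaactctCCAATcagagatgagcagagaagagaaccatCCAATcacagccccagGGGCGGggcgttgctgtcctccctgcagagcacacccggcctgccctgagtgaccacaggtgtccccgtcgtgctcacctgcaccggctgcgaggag
ZNF575: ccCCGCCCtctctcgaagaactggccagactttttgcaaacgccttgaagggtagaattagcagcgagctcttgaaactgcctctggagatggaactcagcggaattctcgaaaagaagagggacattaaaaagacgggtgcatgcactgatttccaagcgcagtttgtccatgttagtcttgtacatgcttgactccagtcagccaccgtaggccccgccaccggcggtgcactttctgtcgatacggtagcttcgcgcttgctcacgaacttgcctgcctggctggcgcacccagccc

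The ETS core CCGGAAG was present in 93 of the 209 promoters (44.5%), against 37.7% of 191 promoters of numbered zinc finger genes on other chromosomes, 14.4% of 14860 protein-coding promoters and 10.3% of all 35116 promoters in the table. The CCAAT box was in 52.6% of the 209 and in 36.4% of protein-coding promoters, and the GC box in 69.9% and 59.5%. The TATA box TATAAA was in 1.91% of the 209 and 9.35% of protein-coding promoters. The letters TGTGGT, bound by RUNX proteins, were in 12.4% of the 209, 10.8% of protein-coding and 13.1% of all promoters. Also searched, on both strands, were TGCGCA (18.7% of the 209, 10.9% of protein-coding promoters), TGACGTCA (3.35%, 2.59%), CACGTG (3.83%, 8.94%), AAGATGGC (6.22%, 4.0%), the Kaiso motif (0.957%, 0.673%), TGANTCA (6.7%, 5.79%) and GCGGGGGCG (1.91%, 6.84%). The EGR letters GCGGGGGCG can overlap a GC box. The ETS core was in 46.9% of the 128 promoters of genes that rose after HHT and in 33.3% of the 12 promoters of genes that fell.

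Depth set what could be measured. Total RNA libraries held 19250789 to 21925693 counts and RiboLace libraries 465052 to 2034796. The 240 genes took 123457 to 138282 counts per HHT library, 55429 to 62276 per mutant control and 52700 and 59865 in wild type, but 2897 and 1405 in mutant RiboLace and 3483 and 2293 in wild-type RiboLace. RUNX1 itself stood at 140 and 141 CPM (counts per 1000000, scaled by TMM) in HHT-treated F3, 166 and 170 in HHT-treated G7, 78.2 and 82.4 in F3 controls, 130 and 114 in G7 controls and 139 and 129 in wild-type total RNA, which does not separate the alleles. In RiboLace it stood at 145 and 138 CPM in mutant F3 and 153 and 176 in wild type. Of 8 myeloid markers 7 were counted in every group, with a sum of 1080 to 1430 CPM per HHT library, 1100 to 1420 per control library and 1400 and 1510 in wild type, 867 and 1030 in mutant RiboLace and 1550 and 2010 in wild-type RiboLace, and all 4 erythroid markers were at 0. Markers of adherent cells summed to 14.7 and 24.6 CPM in mutant RiboLace, 6.23 and 10.9 in wild-type RiboLace and at most 0.315 in total RNA, and their part in the results was not tested.

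Most of these genes were expressed at low levels. Per kilobase of exon, the median level of all 240 genes was 2.43 CPM in HHT-treated mutant cells, 1.35 in mutant controls and 1.20 in wild type. Over all protein-coding genes, whether or not they passed a filter, it was lower, at 0.78, 0.82 and 0.79 CPM in the same order. Among genes that passed the filter for the HHT test, the median was 3.87 CPM per kilobase after HHT and 1.91 in controls for the 189 zinc finger genes, against 6.51 and 5.84 for all protein-coding genes that passed. At least 10 reads in every total RNA library were found for 180 of the 240 genes, and 49 genes reached 10 reads in none. No read in any of the 10 total RNA libraries was counted for 26 genes, of which 14 had none in the RiboLace libraries either. A count of 0 allows up to 0.122 to 0.161 CPM per total RNA library and 1.7 to 6.16 CPM per RiboLace library (3 reads; counting error only).

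The silent genes were not spread evenly. In the group between 19668796 and 24129961, 19 of 37 genes had under 10 reads in every library, against 8 of 57 in the group at the far end of the long arm and 6 of 39 in the group before it. They included ZNF91, whose protein with its 31 fingers binds SVA retroelements, with 0 reads in all 10 total RNA libraries and 1 read in 1 wild-type RiboLace library. ZNF93 in the same group, whose protein binds LINE elements, was counted in every library and stood at 19.8 to 31.3 CPM after HHT, 14.5 to 23.6 in mutant controls and 14.0 and 17.4 in wild type.

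The genes with the highest levels per kilobase were mostly those without a KRAB domain. ZNF146, which encodes a protein made almost wholly of fingers, was highest, at 61.9 CPM per kilobase after HHT, 49.2 in mutant controls and 44.7 in wild type. ZNF787 stood at 38.9 after HHT, 31.1 in controls and 35.4 in wild type, ZNF581 at 17.0, 36.3 and 30.1 and ZNF524 at 7.85, 17.4 and 17.3, in the same order. ZNF317 was the highest gene with a KRAB A box, at 30.5, 18.3 and 15.3 CPM per kilobase. ZNF581 shares 15.7% of its 75-base windows with other genes and overlaps CCDC106 and ZNF580 on its own strand, and ZNF146 overlaps ZNF565 on the other strand, so reads of these genes may be mixed.

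After HHT the chromosome 19 zinc finger transcripts as a whole took a larger share of counts. Summed over the 240 genes, the level was 5754, 5836, 5338 and 5635 CPM in the HHT libraries and 3194, 3125, 2909 and 2945 CPM in the controls. Every HHT library lay above every control. The mean was 5641 ± 218 CPM after HHT and 3043 ± 138 CPM in controls (SD, n = 4 each). Most of the difference lay in the genes with a KRAB A box, which summed to 4436 ± 146 CPM after HHT and 2048 ± 122 CPM in controls, while those without one summed to 1204 ± 85.5 and 994.7 ± 40.4 CPM.

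**Figure D1:**
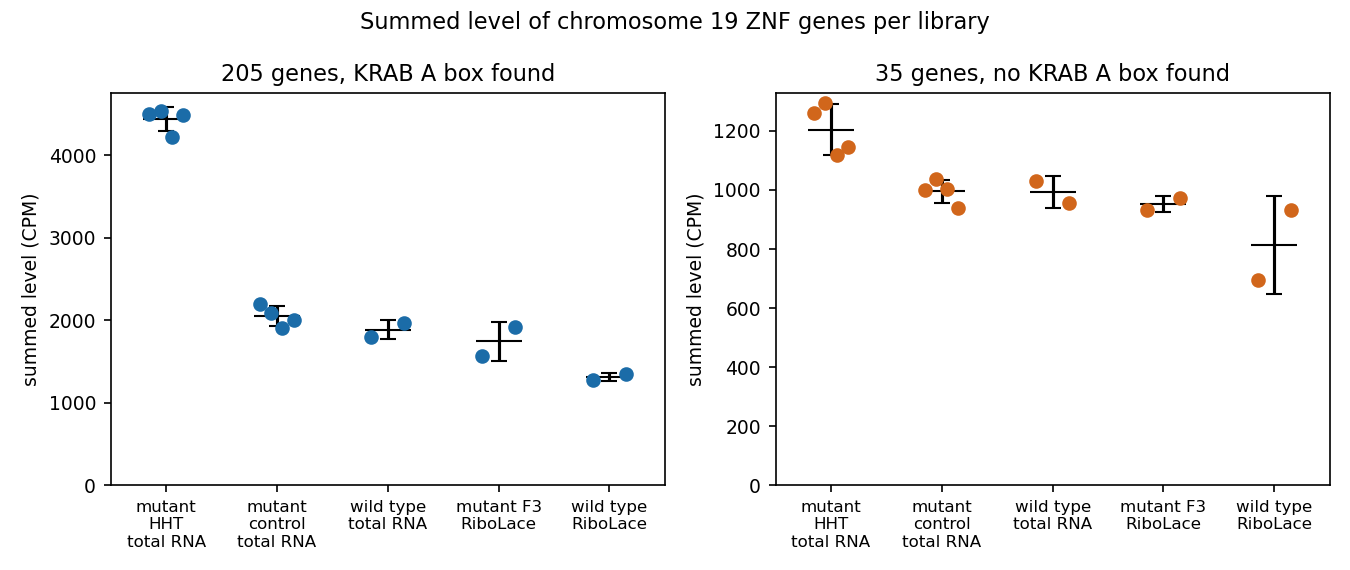
Summed CPM of the 205 chromosome 19 ZNF genes with a KRAB A box (left) and the 35 without one (right), 1 point per library, with the mean and SD of each group. For genes with a KRAB A box the 4 HHT libraries sit between 4220 and 4542 CPM and the 4 controls between 1907 and 2195 CPM.

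Gene by gene, 189 of the 240 passed the filter on low counts, and 143 rose and 15 fell after HHT (edgeR quasi-likelihood test, adjusted p under 0.05 over 13621 genes). Over all genes tested 79.2% passed, 39.9% higher and 39.3% lower, so a call by itself is common in this comparison and the direction is what differs: 75.7% of the 189 rose and 7.94% fell. The median log2 fold change was 0.92 for the 189 genes, -0.00 for all genes tested and 0.75 for the 186 tested zinc finger genes of other chromosomes, of which 135 rose and 27 fell. Of 720 other protein-coding genes of chromosome 19 that were tested, 224 rose and 360 fell, with a median of -0.26. No test was made of these differences between lists.

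The filter let few genes in through the treated libraries alone, since 185 of the 189 had at least 10 reads in 2 or more controls, and of these 141 rose and 15 fell. Over all 240 genes, the mean CPM was higher after HHT in 172, lower in 40 and equal in 28. Of the calls, 133 rises had every HHT library above every control, and 13 falls had every HHT library below. At least 2-fold rises numbered 86 and at least 2-fold falls 7. Neither lack of overlap nor 2-fold change was counted over all genes. These counts therefore do not show how the zinc finger genes compare with others. With library totals alone in place of TMM scaling, the log2 fold changes of all genes moved up to a median of 0.23 with 6682 rises and 4115 falls, and those of the zinc finger genes to a median of 1.15 with 158 rises and 10 falls. These are shares of sequenced RNA from bulk cells, so fewer cells that express a gene and less of its RNA per cell cannot be told apart.

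Genes with a KRAB A box mostly rose: 131 of 160 tested rose and 9 fell, with a median log2 fold change of 1.00. Of the 29 tested without one, 12 rose and 6 fell, with a median of 0.26. The counts also differed by base composition. Genes with transcripts under 45% GC numbered 132, of which 113 rose, with a median log2 fold change of 1.07. From 45% to 55% GC, 23 of 35 rose with a median of 0.64, and from 55% GC upward, 7 of 22 rose and 6 fell with a median of 0.15. Other protein-coding genes ran the same way at lower values, with medians of 0.29, 0.00 and -0.29 in the 3 GC classes. Of them 53.0%, 40.2% and 29.9% rose, against 85.6%, 65.7% and 31.8% of the genes here. In the class from 55% GC upward the shares were thus close. The zinc finger genes of other chromosomes had medians of 0.96, 0.75 and 0.51, and at or above 55% GC 35 of 50 rose (70.0%), against 31.8% of the genes here. Calls also went with level, taken as the mean CPM over the 8 HHT and control libraries. Under 5 CPM 18 of 40 genes rose, from 5 to 20 CPM 52 of 66 and from 20 CPM upward 73 of 83. A rise itself lifts that mean, so these classes are not independent of the response. The pattern was not particular to the genes here. Of other protein-coding genes 26.2%, 42.3% and 44.9% rose in the same classes of level. Of zinc finger genes of other chromosomes 42.9%, 77.6% and 75.7% rose. Within the class under 45% GC, 107 of 124 genes with a KRAB A box rose (median 1.10) and 6 of 8 without one (median 0.60). Only 4 tested genes with a KRAB A box had transcripts at or above 55% GC, so KRAB and GC content cannot be told apart there.

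**Figure D2:**
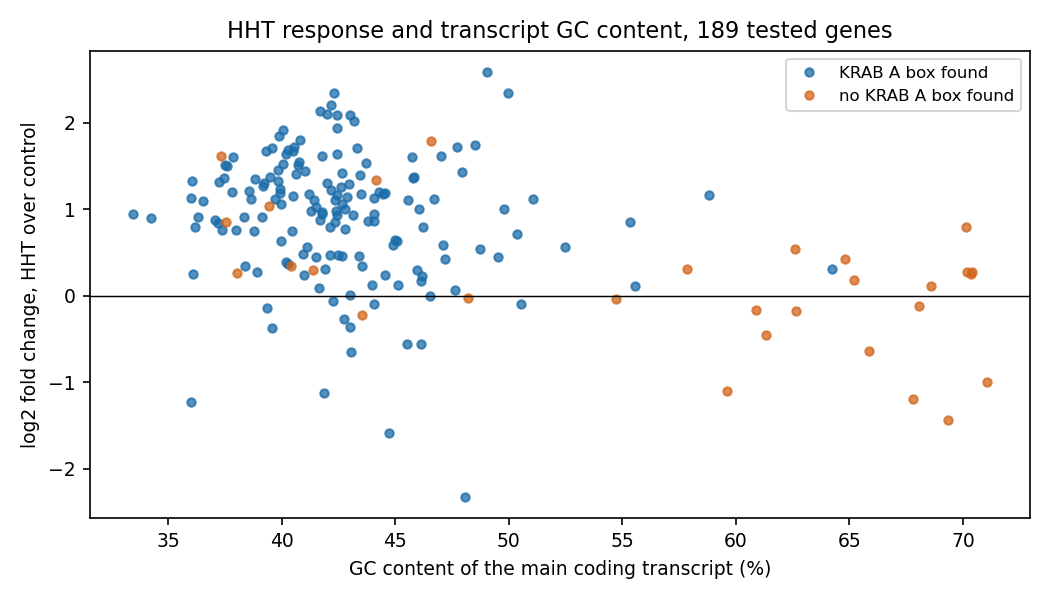
Log2 fold change after HHT over control (vertical axis) against the GC content of the main coding transcript (horizontal axis, percent) for the 189 tested genes, blue with and orange without a KRAB A box. Most points under 45% GC lie above 0, and those at or above 55% GC lie on both sides of it.

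The largest rises were taken among genes averaging at least 1 CPM whose HHT and control libraries did not overlap. They came from 4 position groups, and all 10 genes carry a KRAB A box. ZNF416 (ENSG00000083817.8, chromosome 19, 57571566 to 57578927, minus strand), a KRAB zinc finger gene with 11 fingers, stood at 66.5, 65.9, 51.9 and 54.7 CPM after HHT and 9.06, 11.4, 8.45 and 9.88 CPM in controls. The lowest HHT library was above the highest control. Its log2 fold change was 2.59 ± 0.09 (SE; adjusted p = 6.77e-12). ZNF671 (ENSG00000083814.13, chromosome 19, 57719751 to 57727624, minus strand), a KRAB gene with 9 fingers in the same position group, stood at 67.3, 70.0, 59.5 and 67.2 CPM after HHT and 13.9, 13.4, 10.6 and 12.9 CPM in controls, for a log2 rise of 2.35 ± 0.08 (SE, adjusted p = 1.06e-11). The groups again did not overlap. Both carry an ETS core and a CCAAT box in the promoters shown above. ZNF416 overlaps ZIK1 on the other strand, and ZNF671 overlaps no other exon.

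ZNF776, close by, stood at 46.7 to 52.1 CPM after HHT and 10.8 to 12.4 in controls (log2 fold change 2.10 ± 0.07 SE). In the group between 43525497 and 45076588, ZNF226, with 17 fingers, stood at 76.6, 87.6, 70.6 and 80.9 CPM after HHT and 20.9, 20.0, 17.2 and 18.3 CPM in controls, for a log2 rise of 2.02 ± 0.08 (SE, adjusted p = 2.24e-11). ZNF235 and ZNF222 in that group rose by 2.20 ± 0.11 and 1.94 ± 0.11 on the log2 scale (SE). ZNF222 shares 13.4% of its 75-base windows with other genes, and ZNF235 overlaps ZNF227 and ZNF233 on the other strand, so their counts are less certain. ZNF649 and ZNF613, both in the group of 39 genes, rose by 2.14 ± 0.10 and 2.09 ± 0.13, ZNF761 there by 1.92 ± 0.08, and ZNF829 in the group between 36182060 and 37817300 by 2.10 ± 0.13 (SE). ZNF649 overlaps ZNF577 and ZNF761 overlaps TPM3P9 on its own strand. Lack of overlap between HHT and control libraries was a condition for naming these 8 genes. ZNF564, with a fitted rise of 2.35, averaged under 1 CPM and is not among the 10.

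**Figure D3:**
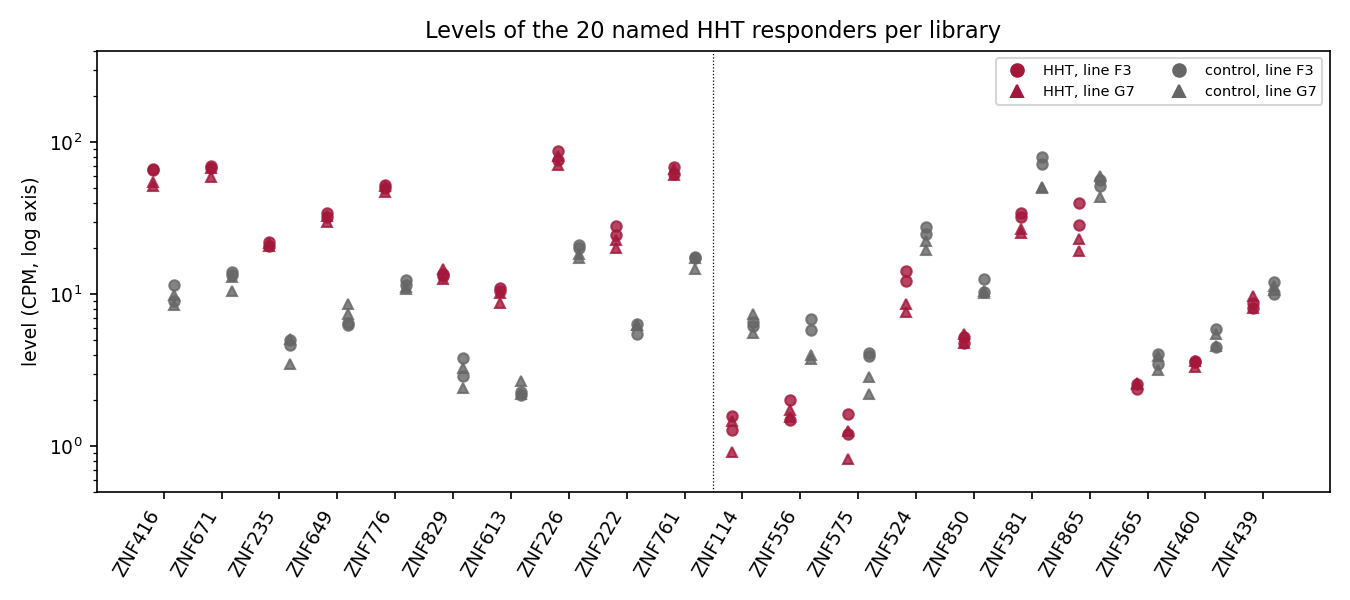
CPM per library (log axis) of the 10 largest rises (left of the dotted line) and 10 largest falls (right) after HHT, with HHT left of control for each gene, circles for line F3 and triangles for line G7. HHT and control libraries do not overlap in any of the 20 genes, which was a condition for naming them.

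The falls were fewer and of mixed kind. ZNF114, a KRAB gene with 3 fingers, stood at 1.58, 1.28, 0.908 and 1.47 CPM after HHT and 6.18, 6.57, 7.40 and 5.59 CPM in controls, for a log2 change of -2.32 ± 0.17 (SE, adjusted p = 1.99e-08). All 4 HHT libraries lay below all 4 controls, which was a condition for naming a fall. It overlaps its antisense gene ZNF114-AS1. ZNF556, whose promoter above holds 5 CCAAT boxes and no ETS core, stood at 1.49 to 2.00 CPM after HHT and 3.73 to 6.85 in controls (log2 fold change -1.59 ± 0.17 SE, adjusted p = 1.16e-06). ZNF575, without a KRAB A box, fell by 1.43 ± 0.19 on the log2 scale (SE) and overlaps ETHE1 on the other strand.

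At the start of the last group, genes without a KRAB A box went both ways. ZNF524 stood at 7.62 to 14.2 CPM after HHT and 19.6 to 27.6 in controls, ZNF581 at 25.2 to 34.0 and 49.7 to 79.7 and ZNF865 at 19.4 to 39.8 and 43.3 to 60.3, with log2 fold changes of -1.20 ± 0.10, -1.10 ± 0.07 and -0.99 ± 0.14 (SE). They lie between 55600022 and 55645622, and ZNF579, just before them, fell by 0.63 ± 0.17. In the same stretch ZNF784 and ZNF580 rose by 0.43 ± 0.12 and 0.28 ± 0.08, and ZNF628, the first gene of the group, by 0.27 ± 0.09 (SE). Fitted by line with edgeR, ZNF580 and ZNF628 passed in F3 (0.425 and 0.431) but not in G7 (0.109 and 0.0923, adjusted p = 0.395 and 0.511). ZNF579 passed in G7 (-1.11) but not in F3 (-0.197, adjusted p = 0.0679). ZNF850, a KRAB gene with 29 fingers, stood at 4.73 to 5.46 CPM after HHT and 10.1 to 12.5 in controls (log2 fold change -1.13 ± 0.11 SE). ZNF565 and ZNF460 each fell by 0.56 and ZNF439 by 0.37 on the log2 scale. With library totals alone ZNF439 stood at -0.14 and did not pass (adjusted p = 0.25), and in line G7 alone ZNF439 and ZNF565 did not pass either (adjusted p = 0.0894 and 0.0865).

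Along the chromosome, rises outnumbered falls in every group with 10 or more tested genes. The group between 51571298 and 53580269 had 29 rises and no fall among 32 tested genes, with a median log2 fold change of 1.17. Its 3 genes that did not pass were ZNF614 (-0.14), ZNF665 (-0.26) and ZNF331, an imprinted KRAB gene (0.00 ± 0.12 SE, adjusted p = 0.978). The last group, between 55476332 and 58481230, had 34 rises and 5 falls among 49 tested genes, with log2 fold changes from -1.20 to 2.59. In the group with the silent genes, 16 of the 18 tested rose and 1 fell, with a median of 0.93. The groups between 11483427 and 12640098, 36182060 and 37817300, and 43525497 and 45076588 had 16 of 22, 16 of 22 and 14 of 20 tested genes higher.

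**Figure D4:**
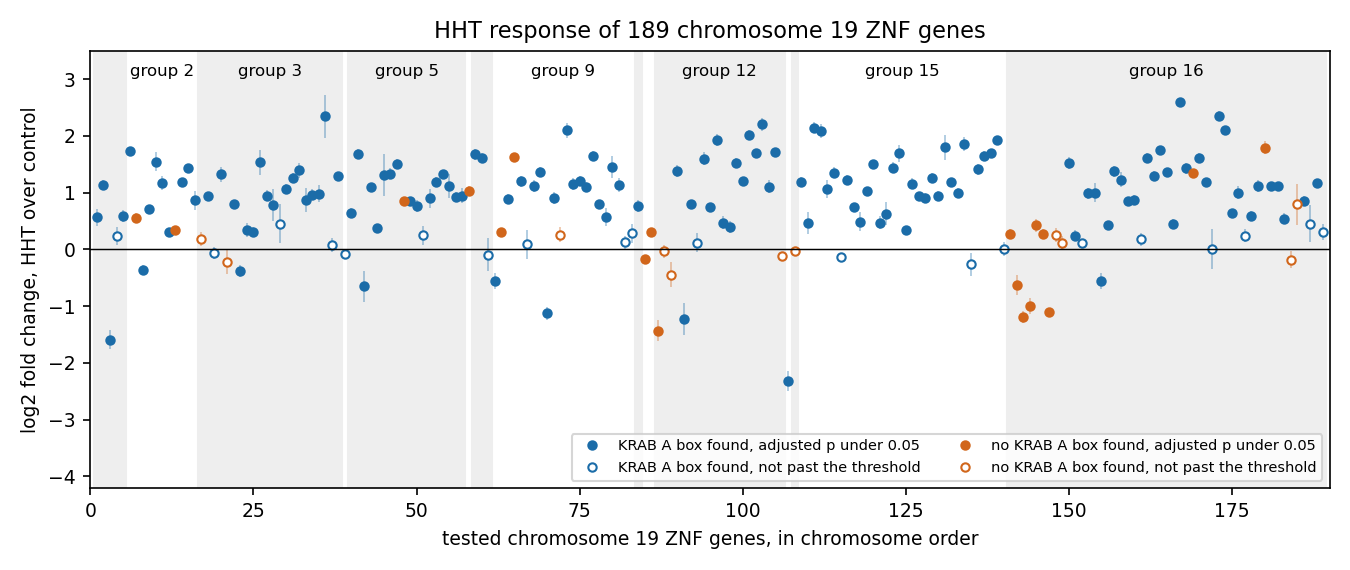
Log2 fold change after HHT over control with its standard error for the 189 tested genes in chromosome order, blue with and orange without a KRAB A box, filled where the adjusted p is under 0.05. Shading separates the position groups; group 15 has 29 rises and no fall, and at the start of group 16 orange points lie on both sides of 0.

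Genes with a described function did not share 1 response. ZNF274, whose protein brings SETDB1 and TRIM28 to the ends of zinc finger genes themselves, stood at 42.9 to 49.1 CPM after HHT and 17.9 to 22.7 in controls, for a log2 rise of 1.12 ± 0.07 (SE, adjusted p = 2.92e-09). ZNF350, a partner of BRCA1, rose by 1.07 ± 0.16 (SE) and stood at 6.31 to 9.17 CPM after HHT and 2.83 to 4.61 in controls. ZNF93 rose by 0.37 ± 0.08 (adjusted p = 0.000928), although HHT and control libraries of the pooled lines overlapped. Of 21 tested corepressor genes, 7 rose and 11 fell after HHT with a median log2 fold change of -0.16. Over all genes 79.2% were called, 39.9% higher and 39.3% lower, so calls among the corepressors were about as common as elsewhere. TRIM28 fell by 0.43 ± 0.08, SETDB1 rose by 0.18 ± 0.06 and ATF7IP, which stabilises SETDB1, rose by 2.51 ± 0.08 (SE). CBX5, which encodes HP1 alpha, fell by 2.04 ± 0.08 and UHRF1, a maintenance factor of DNA methylation, by 1.43 ± 0.07.

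The responses were counted in each line. Fitted alone, line G7 had 140 rises and 11 falls (median log2 fold change 0.98) and line F3 136 rises and 15 falls (median 0.87), where 69.5% and 77.4% of all genes were called. In the genes tested in both, 130 rose in both lines, 8 fell in both and none was called in opposite directions. The difference of the HHT response between the lines was tested as an interaction, in which 4.2% of all genes passed, 2.14% with a higher and 2.06% with a lower response in G7. Of the 189 zinc finger genes 4 passed, 1 higher and 3 lower, and with the replicate number as a block 12 (6.35%), where 16.1% of all genes passed. ZNF428, without a KRAB A box, stood at 6.83 and 7.13 CPM in HHT-treated G7 and 16.4 and 16.6 in HHT-treated F3, against 18.6 and 12.4 in G7 controls and 12.3 and 15.8 in F3 controls. The interaction was -1.35 ± 0.24 (SE, log2, G7 minus F3; adjusted p = 0.00494). ZNF579 (-0.93, adjusted p = 0.0269) and ZNF787 (-0.65, adjusted p = 0.0232) also had lower responses in G7, and the KRAB gene ZNF836 a higher one (0.93, adjusted p = 0.0193). With 1 library left out, a smaller share of the zinc finger genes than of all genes passed, except without HHT replicate 1. Without 1 library the count of calls was 0 (control replicate 1), 1 (HHT replicate 2, 3 or 4), 2 (control replicate 2) or 8 (control replicate 4).

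In untreated cells few of these genes passed the test of the RUNX1 genotype. Of 187 tested, 1 rose and none fell in the mutant controls against wild type, where 4.56% of all genes passed, 2.49% higher and 2.07% lower. An unadjusted p under 0.05 was found for 20 of the 187, a smaller share than the 3058 of all 13949 genes tested. The median log2 fold change was 0.10. DESeq2 called 3 higher (ZNF569, ZNF558 and ZNF790) and none lower, where it called 7.96% of all genes. ZNF790, a KRAB gene with 12 fingers, stood at 5.20, 5.27, 5.20 and 5.48 CPM in mutant controls and 3.17 and 3.03 CPM in wild type, for a log2 rise of 0.76 ± 0.18 (SE, edgeR adjusted p = 0.0448). Its groups did not overlap, which the rule for naming required. No library could be left out without losing the call (adjusted p 0.0542 to 0.286), and it overlaps ZNF790-AS1. Among the corepressors TRIM28 (-0.48 ± 0.11 SE, adjusted p = 0.0385) and UHRF1 (-0.50 ± 0.09, adjusted p = 0.0158) were lower in the mutant.

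This count depends on how the lines are handled. With G7 and F3 as separate groups, G7 alone had 5 rises and 4 falls against wild type and F3 alone 21 rises and 1 fall, and the mean of the lines had 12 rises and 2 falls. Over all genes these fits called 17.7%, 18.1% and 20.4%, above the 4.81%, 11.8% and 7.49% of the zinc finger genes. These contrasts share the 2 wild-type libraries. ZNF790 was higher in both lines, by 0.78 in G7 and 0.75 in F3. Between the lines, G7 controls were lower than F3 controls in 6 genes and higher in none, where 12.5% of all genes passed, 5.46% higher and 7.03% lower. With any 1 library left out, the share of the zinc finger genes that passed stayed below that of all genes. Without 1 library the count was 2 (F3 control replicate 1), 4 (F3 control replicate 2 or G7 control replicate 3), 9 (G7 control replicate 4), 12 (wild-type replicate 2) or 14 (wild-type replicate 1). The 6 were ZNF556 (-0.71 ± 0.20 SE), ZNF470 (-0.65 ± 0.18), ZNF581 (-0.60 ± 0.11), ZNF296 (-0.56 ± 0.13), ZNF93 (-0.55 ± 0.14) and ZNF468 (-0.41 ± 0.12), with adjusted p of 0.00191 to 0.0339. ZNF581 stood at 50.5 and 49.7 CPM in G7 controls and 71.9 and 79.7 in F3 controls.

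Whether RiboLace libraries held fewer of these transcripts than total RNA depended on the genotype and the scaling. In wild type the 240 genes summed to 1973 and 2281 CPM in RiboLace, against 2834 and 2923 CPM in total RNA, and in mutant F3 to 2507 and 2886 CPM against 3194 and 3125 CPM. On this TMM scale neither RiboLace pair overlapped its total RNA pair. Per 1000000 library counts, wild type still did not overlap (1712 and 2174 in RiboLace, 2731 and 2832 in total RNA), but mutant F3 did (2429 and 3021, 3084 and 2919). Protein-coding genes took 74.5% to 77.9% of the counts of a RiboLace library and 97.8% to 98.3% of those of a total RNA library. As a share of protein-coding reads, mutant F3 RiboLace was higher than total RNA, with 0.325% and 0.392% against 0.315% and 0.298%, and wild type overlapped, with 0.23% and 0.279% against 0.278% and 0.288%. The test of 15338 genes called 48.3% of them for wild type and 49.2% for mutant F3, so these calls too are common. Of 189 zinc finger genes tested, 11 were higher and 63 lower in RiboLace in wild type, with a median log2 difference of -0.63, and 20 were higher and 36 lower in mutant F3, with a median of -0.32. Over all genes the wild-type contrast called 27.3% higher and 21.0% lower, and the mutant F3 contrast 26.5% and 22.7%. Without wild-type RiboLace replicate 1 calls in wild type were fewer, among these genes and among all genes. The same held for mutant F3 without mutant RiboLace replicate 1. Each of those fits leaves 1 library in a group. All protein-coding genes tested had medians of -0.11 (wild type) and -0.20 (mutant F3), the zinc finger genes of other chromosomes -0.14 and 0.02.

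Few reads stood behind these values. At least 10 reads in every RiboLace library were found for 36 of the 240 genes, and 28 genes had none in all 4. Where the share in total RNA would give at least 10 reads, 118 of 149 wild-type genes and 90 of 126 genes of mutant F3 had fewer than that (79.2% and 71.4%; median ratios 0.617 and 0.688). By the same rule 62.0% and 66.5% of the other protein-coding genes had fewer (median ratios 0.861 and 0.773), as did 61.4% and 53.8% of the zinc finger genes of other chromosomes. None of the 149 and 126 genes had 0 reads. The largest called falls of the named genes rested on almost no reads. ZNF429, with 331 reads in the 2 wild-type total RNA libraries, had 1 in wild-type RiboLace, a ratio of 0.0426 after scaling (exact 95% interval 0.00108 to 0.239). In mutant F3, ZNF443 had 0 reads in RiboLace and 138 in the 2 total RNA libraries, at least 1.92-fold lower (3 reads over the group); 26.6% of its 75-base windows are shared with other genes.

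Of other named genes, ZNF93 and ZNF146 were lower in RiboLace and ZNF274 was not called. ZNF93 had few reads, 11 in wild-type RiboLace and 10 in mutant F3 RiboLace. ZNF146 and ZNF274 had 241 and 58 in wild-type RiboLace. ZNF93 stood at 3.96 and 3.98 CPM in wild-type RiboLace against 14.0 and 17.4 CPM in total RNA, a log2 difference of -1.94 ± 0.39 (SE; adjusted p = 0.000251), and at 4.33 and 10.3 against 23.6 and 22.1 CPM in mutant F3 (-1.82 ± 0.41, adjusted p = 0.000775). ZNF146 stood at 82.7 and 94.5 CPM in wild-type RiboLace against 169 and 201 in total RNA (-1.03 ± 0.18). ZNF274 stood at 18.7 and 24.9 CPM against 20.0 and 20.2, a difference of 0.12 ± 0.23 that did not pass (adjusted p = 0.708). Among the HHT rises, ZNF671 (-1.04 ± 0.36, adjusted p = 0.0213) and ZNF226 (-0.76 ± 0.30, adjusted p = 0.0426) were lower in wild-type RiboLace, and ZNF416 stood at -0.98 ± 0.41 (adjusted p = 0.054). These rested on 15, 26 and 12 reads in wild-type RiboLace.

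**Figure D5:**
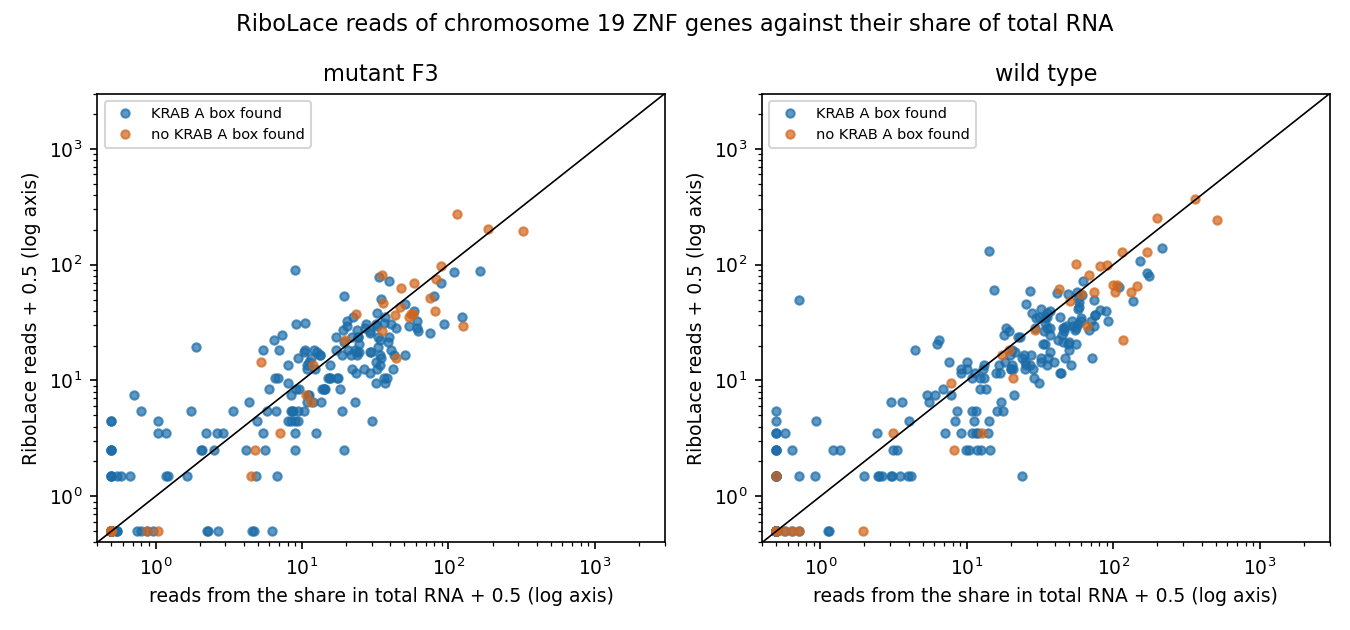
RiboLace reads of each of the 240 genes, summed over 2 libraries (vertical axis), against the reads that their share of total RNA would give (horizontal axis), both plus 0.5 on log axes, in mutant F3 (left) and wild type (right). The line marks equality; of genes with at least 10 reads on the horizontal axis, 90 of 126 in mutant F3 and 118 of 149 in wild type lie below it.

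A few genes stood far above their share. ZNF460, a KRAB gene with 11 fingers, stood at 46.5 and 48.7 CPM in wild-type RiboLace against 3.98 and 5.86 in total RNA, a log2 difference of 3.31 ± 0.25 (SE; adjusted p = 2.14e-10), and at 47.6 and 69.8 against 4.48 and 5.87 in mutant F3 (adjusted p = 6.33e-10). It overlaps AC005261.5 on the other strand. ZNF793 had 32 and 17 reads in wild-type RiboLace against 2 and 1 in the total RNA libraries, a scaled ratio of 230 (exact 95% interval 74.3 to 1160, counting error only). It had 5 and 2 reads in mutant RiboLace and overlaps ZNF793-AS1 and AC022148.1. ZNF749 was higher in RiboLace by 2.10 ± 0.32 (wild type) and 1.89 ± 0.40 (mutant F3). ZNF792 was higher by 2.28 ± 0.62 (wild type) and 3.83 ± 0.67 (mutant F3). ZNF528 and ZNF66 were also called higher in mutant F3, on 5 and 4 RiboLace reads. Their shares of total RNA would give 0.293 and 0.543 reads there, and that of ZNF793 would give 0.217 in wild type. In RiboLace 3 reads equal 1.7 to 6.16 CPM, against 0.122 to 0.161 in total RNA. ZNF793, ZNF528 and ZNF66 thus passed the filter through RiboLace reads, so their calls could hardly have been lower. How many other genes called higher entered in that way was not counted. The part of overlapping transcripts in these values was not tested.

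Between genotypes, mutant F3 RiboLace held more of these transcripts, 2507 and 2886 CPM in sum, than wild-type RiboLace, with 1973 and 2281 CPM, and the pairs did not overlap, nor did they on the other 2 scales. The summed myeloid markers were lower there in the mutant (867 and 1030 CPM) than in wild type (1550 and 2010 CPM), and their part in the result was not tested. Depth differed as well, with 1192811 and 465052 counts in mutant F3 and 2034796 and 1054581 in wild type. Within each genotype the shallower library had the higher sum, although mutant replicate 1 was deeper than wild-type replicate 2. The part of depth was not tested either. Just 87 genes passed the filter there, 5 of them higher and 1 lower, where 11.8% of all genes passed, 6.18% higher and 5.59% lower, and the median log2 fold change was 0.34 against -0.01 over all genes. The zinc finger genes of other chromosomes had a median of 0.48. ZNF121, without a KRAB A box, stood at 146 and 210 CPM in mutant F3 and 92.3 and 88.5 in wild-type RiboLace, for a log2 rise of 1.04 ± 0.27 (SE, adjusted p = 0.0117). ZNF714, from the group with the silent genes, rose by 1.69 ± 0.51 (SE, adjusted p = 0.027), on 22 and 15 reads in mutant F3 against 18 and 4 in wild type. ZNF28, ZNF264 and ZNF551 were higher by 1.79 ± 0.60, 1.30 ± 0.36 and 1.27 ± 0.34, and ZNF793 was lower. DESeq2 called 1, ZNF121, where it called 4.23% of all genes. Without wild-type RiboLace replicate 1 or mutant RiboLace replicate 2, edgeR calls were fewer among these genes and among all genes. Each of those fits leaves 1 library in a group.

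Translational efficiency, the RiboLace level relative to total RNA, was compared between mutant F3 and wild type as an interaction, where 1.49% of all genes passed, 0.482% higher and 1.01% lower. Of 189 zinc finger genes 2 were higher and none lower in the mutant. They were ZNF714, by 1.88 ± 0.44 (SE, log2; adjusted p = 0.0352), and ZNF121, by 1.01 ± 0.25 (adjusted p = 0.0433), and the median over the 189 was 0.23. In total RNA ZNF714 stood at 34.2 and 33.2 CPM in F3 controls and 39.6 and 44.4 in wild type, and ZNF121 at 72.9 and 65.7 against 72.7 and 71.0. In every fit with 1 library left out, a smaller share of the zinc finger genes than of all genes passed. Leaving out either total RNA library of F3 or of wild type, or mutant RiboLace replicate 2, removed both calls. Leaving out replicate 1 of either RiboLace pair left 1 call, and leaving out wild-type RiboLace replicate 2 gave 6.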

How the data were processed

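The authors deposited raw read counts per gene for 14 libraries in 1 table, keyed by Ensembl IDs. The submitters' processing notes name GRCh38, DESeq2 and STAR 2.6.0b without saying what each did. No source says how reads were assigned to genes or whether strand was used. Overlapping or near-identical genes may therefore share reads. IDs were matched to GENCODE release 29 (57433 of 58037; 604 unmatched), and every column was matched to its labels.

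Tests used edgeR 4.0.16 in R 4.3.3 (filterByExpr, TMM, quasi-likelihood F-test) on all genes, with Benjamini-Hochberg adjustment over every gene tested and calls at an adjusted p under 0.05. HHT against control had line as a covariate, and the 2 mutant lines were 1 group in the genotype test. The 4 RiboLace libraries were fitted by themselves for genotype. A fit of 8 libraries, with F3 as the mutant, gave RiboLace against total RNA and translational efficiency, and gives both assays the same spread. SE is the absolute log2 fold change over the square root of F. CPM use 1 TMM scaling over all libraries. Groups with 1 to 3 reads have a ratio with an exact 95% interval.

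The KRAB A box was scored against a 38-residue consensus of 123 of these genes' own translated proteins, with at least 14 matches required, a limit set after the scores were seen (at most 11 without, at least 16 with). Shared windows are 75-base stretches of a gene's transcripts found in another gene's. Members, lists and named genes were chosen with earlier results of these data known. Named were the 10 largest HHT rises and falls past the threshold without overlap of groups and with a mean of at least 1 CPM, up to 5 each way in other comparisons, the 5 highest per length, and ZNF91, ZNF93, ZNF274, ZNF331 and ZNF350; of the corepressors, TRIM28, SETDB1 and the 3 with the smallest HHT adjusted p. ZNF208, ZNF468, ZNF558, ZNF564, ZNF569, ZNF614, ZNF665, ZNF738, ZNF580, ZNF628 and ZNF784, and ZNF579 and ZNF226 outside the comparisons that name them, were named after their values were seen. Alternatives were RLE size factors, library totals alone, other filters, DESeq2 1.42.0, each library left out, other handling of the lines, protein-coding genes alone and the replicate block; sums as shares of library totals or of protein-coding reads were added after seeing the data. Same-numbered HHT and control libraries deviated together within lines (r of 0.106 and 0.263 across genes), although another label numbers the libraries differently. Their numbers were taken as pairs only in the replicate block, an alternative setting, and the reported fits hold no pairing. In the other comparisons r was -0.078 to -0.0307.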

Additional observations from a re-analysis of the deposited data

Results flagged for a closer look

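Among 46 groups of 4 libraries, 4 had a library whose gap to its nearest neighbour took most of the group's range (past Dixon's 95% value), where chance gives about 1 in 20. The summed level of the genes with a KRAB A box was 4220 CPM in HHT replicate 3, the lowest of its group. ZNF222 stood at 5.47 CPM in control replicate 2, ZNF761 at 14.7 CPM in control replicate 4 and ZNF850 at 12.5 CPM in control replicate 1.

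The HHT response differed between the lines (G7 minus F3, edgeR interaction, log2) by -1.35 in ZNF428, by 0.931 in ZNF836, by -0.93 in ZNF579 and by -0.652 in ZNF787. Translational efficiency differed between mutant F3 and wild type by 1.88 in ZNF714 and by 1.01 in ZNF121. ZNF428 overlaps SRRM5 on the other strand, and 11.5% of the 75-base windows of ZNF836 are shared with other genes.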

How the results depend on the processing

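For HHT against control, 151 to 168 of these genes were called over the other settings and 152 to 159 with 1 library left out, against 158 as reported. Of 320 alternative values of the 20 named responders, 317 kept direction and call, 3 kept direction alone and none turned round. With the replicate block the HHT response difference between lines had 12 calls in place of 4 (16.1% of all genes in place of 4.2%), and 0 to 8 with 1 library left out. The genotype count in total RNA, 1 as reported, was 3 by DESeq2, 9 in line G7 alone, 22 in line F3 alone and 14 for the mean of the lines (17.7%, 18.1% and 20.4% of all genes), 7 without a filter, 2 at a mean of at least 1 CPM, 21 with the replicate block (which holds only F3 and wild-type libraries sharing a number; 19.5% of all genes) and 0 to 2 with 1 library left out. For G7 against F3 controls it was 13 without a filter and 2 to 14 with 1 library left out. For RiboLace between genotypes it was 1 by DESeq2 and 1 to 6 with 1 library left out. RiboLace against total RNA gave 40 to 74 calls in wild type and 23 to 58 in mutant F3 with 1 library left out. Translational efficiency gave 4 by DESeq2, 1 at a mean of at least 1 CPM and 0 to 6 with 1 library left out. In scalings chosen after seeing the data, the log2 ratio of the mean summed level, RiboLace over total RNA in mutant F3, turned round to 0.225 as a share of protein-coding reads, against -0.23 by TMM, and in wild type was -0.16 against -0.44. HHT over control was 1.10 by library totals and 1.09 as that share, against 0.89. The causes were not tested. Over all genes DESeq2 called 7.96% for genotype in total RNA, 4.23% for RiboLace between genotypes and 4.13% for translational efficiency. Without a filter 6.0% of all genes passed for genotype in total RNA and 7.23% for G7 against F3 controls. RiboLace depth limits what can be said of these genes, since 3 reads there equal 1.7 to 6.16 CPM.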
